A study of Mus musculus with 30 samples.

Results

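Undifferentiated spermatogonia of mice one week old can be collected by different handles, and the 2 preparations compared here used unlike ones. OCT4-GFP cells came from postnatal day 7 (P7) testes of mice whose green fluorescent protein reports OCT4, and were sorted by fluorescence. THY1 cells came from P7 testes of C57BL/6 mice and were pulled out with magnetic beads against THY1 (CD90.2). Every library carries the strain label C57BL/6 and the cell type label spermatogonia; the P7 OCT4-GFP library itself is labelled with the marker Oct4, and the protocol names GFP-positive cells of that age. The labels name no treatment and no number of animals per library. The reporter line came from the Jackson Laboratory, and sorted cells were checked for viability by exclusion of propidium iodide. The members were chosen by label alone: 3 of the 30 samples of the series, 1 OCT4-GFP library and 2 THY1 libraries, in the deposited table of FPKM (fragments scaled to transcript length and to the library's total). That table holds 1 value per gene for OCT4-GFP and 1 value for the 2 THY1 libraries together, so differences below stand without replicates or tests and describe these libraries. The reporter line, the sorting method and the marker changed together between the preparations and cannot be told apart.

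OCT4, encoded by Pou5f1, is a homeodomain transcription factor of pluripotent cells that germ cells keep until they differentiate. In the early postnatal testis it marks gonocytes and undifferentiated spermatogonia, the pool that holds the stem cells. These cells depend on GDNF from Sertoli cells, received by GFRA1 and RET, and later pass through a NEUROG3-positive progenitor state before retinoic acid turns on Stra8 and Kit. THY1 is a surface protein of undifferentiated spermatogonia, but also of other cells, among them T cells and some stromal cells.

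Differences are P7 OCT4-GFP minus P7 THY1 on the log2(FPKM + 1) scale, which understates changes of low genes. Over all 20889 genes, 457 (2.19%) differed by at least 4-fold and reached 5 FPKM in whichever preparation was higher. Of these 34 were higher in OCT4-GFP cells, 0.163% of the table, and 423 were lower, 2.02%. The higher genes included 7 of the macrophage marker list, 5 clustered histone genes, and Neurog3 and Pld6 of the germ cell lists. The lower genes held markers of Sertoli, endothelial and mast cells and granulocytes, red cells, immediate early genes and genes of the actin cytoskeleton. Gene lists are described by members with an FPKM of 1 or more in either column, beside all 13375 such genes, of which 7.83% were 2-fold or more higher and 12.6% 2-fold or more lower in OCT4-GFP cells. The median difference of those genes was 0.08.

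**Figure D1:**
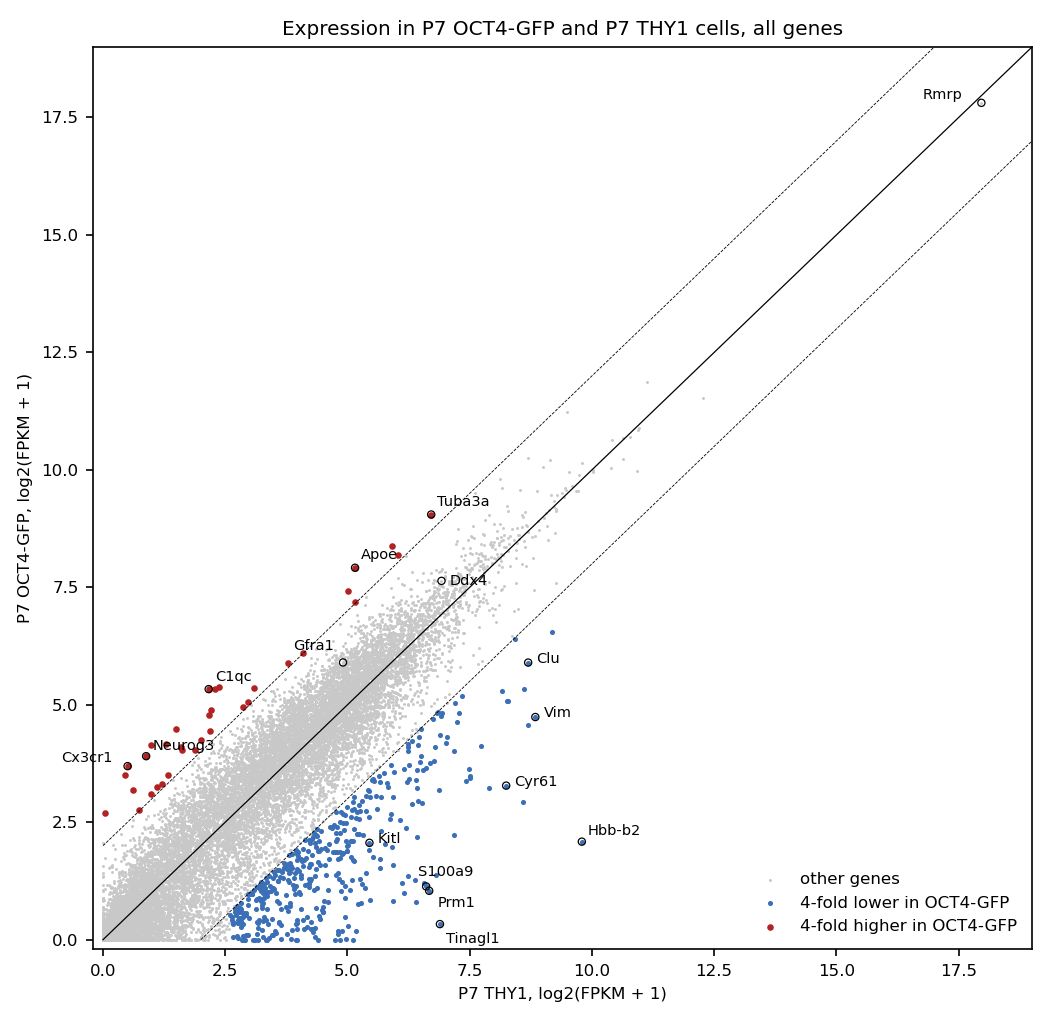
Expression of all 20889 genes, with log2(FPKM + 1) in P7 THY1 on the horizontal and in P7 OCT4-GFP on the vertical axis; the solid line marks equal values and the dashed lines 4-fold. The 34 genes higher in OCT4-GFP cells (red) lie close to the upper dashed line, while the 423 lower genes (blue) reach a difference of -7.71 at Hbb-b2.

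The genes behind the selections did not separate the preparations. Pou5f1 stood at 29.2 FPKM in OCT4-GFP and 21.0 FPKM in THY1 cells, a difference of 0.45. In the P7 columns not compared here it stood at 36.5 FPKM in ID4-GFP, 14.1 FPKM in VASA THY1 and 9.02 FPKM in KIT cells. OCT4-GFP cells were thus second to ID4-GFP cells in Pou5f1. Thy1 stood at 1.64 FPKM in both preparations, and was higher only at birth (P0), at 18.3 FPKM in P0 THY1 cells and 5.07 FPKM in P0 OCT4-GFP cells. The transcript of the bead antigen was therefore no higher in the bead-selected cells at P7. Kit, the receptor of differentiating spermatogonia, stood at 36.7 against 21.3 FPKM (OCT4-GFP first, as in every pair below), and Id4, a transcription inhibitor of stem cells, at 26.3 against 29.6 FPKM. Among 16 surface antigens used to sort spermatogonia, 1 was 2-fold higher and 5 were 2-fold lower (median -0.10). The integrin gene Itga6 (46.7 against 53.7 FPKM), Epcam (60.8 against 55.9 FPKM) and the tetraspanin gene Cd9 (67.0 against 51.1 FPKM) were near equal, while Itgav, a subunit of the vitronectin receptor, stood at 3.39 against 26.7 FPKM.

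Both preparations carried the defining germ cell transcripts, at a higher level in OCT4-GFP cells. Of 20 germ cell identity genes 19 passed the filter, 17 stood above 0 and 3 were 2-fold higher, with a median difference of 0.57. Ddx4, the germ cell RNA helicase VASA, stood at 198 against 120 FPKM, Mael at 392 against 291 FPKM and Tdrd1, a tudor domain protein of germ granules, at 86.9 against 40.5 FPKM. The alpha-tubulin genes Tuba3a (529 against 104 FPKM) and Tuba3b (429 against 152 FPKM) were higher by more; they are close copies that may share reads, so their split is uncertain. Dazl, an RNA-binding translation factor of germ cells, ran the other way at 404 against 606 FPKM. In these bulk libraries fewer cells of a type and less RNA per cell cannot be told apart, so these levels are shares of the RNA, not counts of cells.

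Genes of undifferentiated progenitors were higher in OCT4-GFP cells. Of 17, all kept, 16 stood above 0, 6 were 2-fold higher and 0 were 2-fold lower (median 0.77). Neurog3, the helix-loop-helix factor of committed progenitors, measured 14.0 FPKM in the OCT4-GFP library against 0.843 FPKM in THY1, a difference of 3.02. It stood at 7.30 FPKM in P7 ID4-GFP, 7.13 FPKM in P7 VASA THY1 and 4.13 FPKM in P7 KIT cells, and at 0.607 and 0.405 FPKM in the P0 OCT4-GFP and P0 THY1 columns. P7 THY1 was thus the lowest and P7 OCT4-GFP the highest of the 5 columns of that age. Neurog3 was the only one of the 17 at 4-fold. Behind it stood Foxc2, a forkhead factor of quiescent stem cells (19.8 against 7.32 FPKM), Sall4, a zinc finger factor needed for spermatogonial differentiation (99.9 against 40.2 FPKM), the RNA-binding protein gene Lin28a (117 against 49.9 FPKM) and Sox3 (55.5 against 23.5 FPKM). Zbtb16, which encodes the self-renewal factor PLZF, stood at 112 against 65.8 FPKM. Taf4b, a germ cell subunit of the general factor TFIID, was the member below 0, at 46.0 against 51.3 FPKM.

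Of 21 genes of stem cell self-renewal 20 were kept, 2 were 2-fold higher and 4 were 2-fold lower (median 0.31). These counts lay near the shares over all kept genes, 7.83% higher and 12.6% lower. The receptor genes Gfra1 (58.7 against 29.0 FPKM) and Ret (65.6 against 39.8 FPKM) were higher in OCT4-GFP cells. So were the transcription factor gene Bcl6b (20.4 against 9.75 FPKM), the repressor gene Nanos2 (5.63 against 1.86 FPKM) and Egr4 (95.7 against 36.3 FPKM). The 4 that were 2-fold lower were led by Epha2. Epha2, an ephrin receptor, stood at 16.7 against 85.6 FPKM, Spry4, a Sprouty inhibitor, at 8.07 against 21.6 FPKM, Dusp6, an ERK phosphatase, at 47.9 against 113 FPKM, and the chemokine receptor gene Cxcr4 at 11.9 against 26.2 FPKM. These 4 were not lower in the OCT4-GFP column at P0, where they stood at 42.5 against 34.2, 15.3 against 10.6, 103 against 60.1 and 21.8 against 21.2 FPKM. Etv5, a target of GDNF, stood at 25.8 against 20.2 FPKM at P7.

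Pluripotency genes also had a positive median (19 of 20 in the table, 14 kept, 3 at 2-fold higher, 1 at 2-fold lower, median 0.50). Sall4 and Lin28a, among the 3 at 2-fold higher, also belong to the progenitor list, so the lists are not independent. Zfp42, the stem cell marker REX1, stood at 7.04 against 2.29 FPKM and the chromatin factor gene Utf1 at 5.04 against 2.03 FPKM. The 1 at 2-fold lower was the growth regulator Myc, at 0.506 against 21.8 FPKM, the largest difference in the list (-3.92). Myc also belongs to the immediate early list described below.

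Differentiating and meiotic genes had positive medians against P7 THY1. Of 16 genes of differentiating spermatogonia 15 were in the table and kept, 4 were 2-fold higher and 0 were 2-fold lower (median 0.33), although the median was -0.25 against P7 VASA THY1. Sohlh1, a helix-loop-helix factor that starts differentiation, stood at 178 against 58.1 FPKM, Lmo1 at 18.9 against 5.90 FPKM, Stra8, the retinoic acid target of meiotic entry, at 88.2 against 39.7 FPKM, and the methyltransferase gene Dnmt3b at 47.3 against 21.8 FPKM. Dmrtb1, which times the entry into meiosis, did not follow them. It stood at 6.05 against 5.49 FPKM, while P7 ID4-GFP, VASA THY1 and KIT cells held 20.1, 41.2 and 42.7 FPKM, so both preparations were low. Esx1, a homeobox gene, was also low in both, at 1.65 against 3.70 FPKM. Of 35 meiotic prophase genes 26 were in the table and kept, with 5 at 2-fold higher, none at 2-fold lower and a median of 0.53, or -0.35 against P7 VASA THY1. The cohesin gene Rec8 (19.8 against 5.24 FPKM), Mei1 (9.66 against 3.33 FPKM) and Psmc3ip, a cofactor of the meiotic recombinase (29.1 against 11.7 FPKM), stood highest. Sycp3 of the synaptonemal complex (71.8 against 99.6 FPKM) and the DNA repair gene Tex15 (70.4 against 111 FPKM) stood below 0, as Dazl did.

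**Figure D2:**
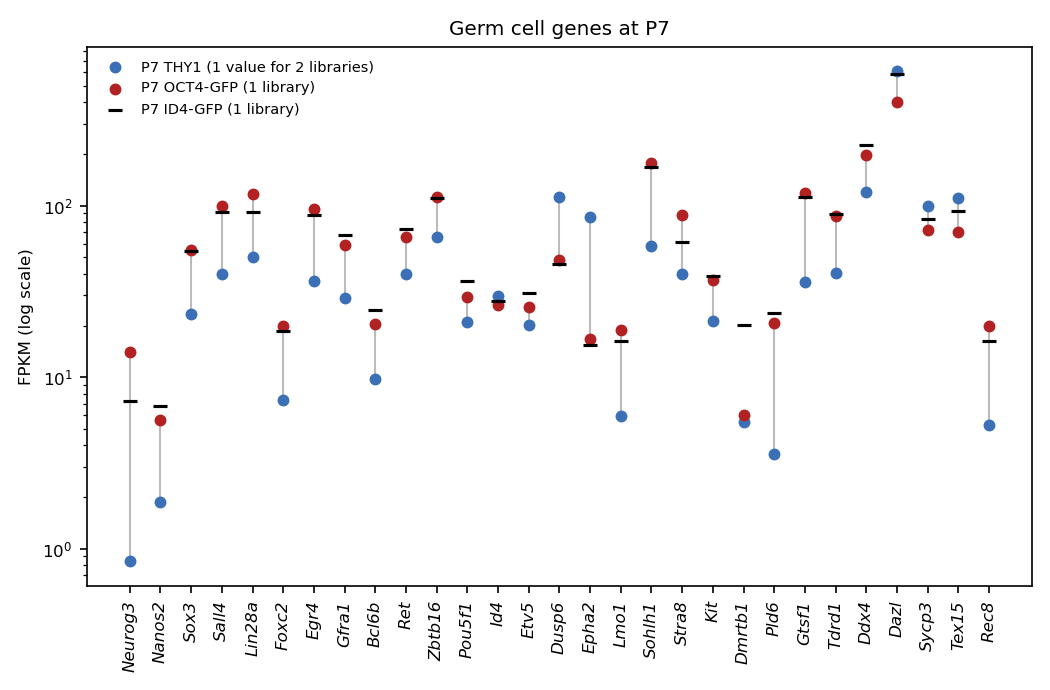
Levels of 29 germ cell genes at P7 in FPKM (log scale); blue points are P7 THY1 (1 value for 2 libraries), red points P7 OCT4-GFP and black dashes P7 ID4-GFP (1 library each), and grey lines join the compared values. Neurog3 spans 0.843 to 14.0 FPKM, whereas Id4 and Dmrtb1 differ little and Dusp6, Epha2, Dazl, Sycp3 and Tex15 are higher in THY1 cells.

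Genes of the piRNA pathway, which silences transposons in the germline, were the most uniform of the germ cell lists. Of 20, 19 were in the table and 18 kept, and all 18 stood above 0, with 6 at 2-fold higher (median 0.76, range 0.26 to 2.25). Pld6, a nuclease of the mitochondrial surface that makes piRNAs, stood at 20.7 against 3.57 FPKM, Exd1 at 14.7 against 3.81 FPKM, and the PIWI partner gene Gtsf1 at 119 against 35.9 FPKM. Piwil2, the PIWI protein MILI, stood at 178 against 113 FPKM. In the DNA methylation list, 4 of 18 kept members of 20 were 2-fold higher and 2 were 2-fold lower (median 0.38). Uhrf1, which guides maintenance methylation, stood at 101 against 40.4 FPKM, and the demethylase gene Tet2 at 0.863 against 6.11 FPKM. Cell cycle genes, 31 of 31 kept, had a median of 0.54, and 28 stood above 0. At 2-fold none was lower and 2 were higher, near the 7.83% of all kept genes. These 2 were Cdca8 (98.1 against 36.4 FPKM) and its partner in the chromosomal passenger complex, the kinase gene Aurkb (68.1 against 28.7 FPKM), while Mki67 stood at 55.3 against 73.3 FPKM and the cyclin gene Ccne2 at 10.6 against 21.6 FPKM.

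Macrophage genes had the highest median of the 31 lists. Macrophages of the postnatal testis lie between and around the tubules and express the growth factor receptor CSF1R, complement C1q and scavenger receptors. Of 15 marker genes 14 were kept, 10 were 2-fold and 7 were 4-fold higher in OCT4-GFP cells, and none was 2-fold lower (median 1.93). The 4-fold share over all kept genes was 0.262%. The C1q chains C1qa, C1qb and C1qc stood at 40.5 against 4.15, 28.8 against 3.59 and 39.3 against 3.48 FPKM. Csf1r stood at 16.1 against 2.03 FPKM, the mannose receptor gene Mrc1 at 21.4 against 1.83 FPKM, Emr1, the F4/80 antigen, at 8.45 against 1.15 FPKM, and the lysozyme gene Lyz2 at 68.0 against 16.0 FPKM. Each of these 7 was higher in OCT4-GFP cells than in any other P7 column.

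Further genes known from macrophages were among the 20 largest differences in the direction of OCT4-GFP. They were picked from those differences, so their direction was fixed in advance. The chemokine receptor gene Cx3cr1 stood at 11.9 against 0.417 FPKM, a difference of 3.19 and the largest among the higher genes. Fcrls (16.6 against 0.978 FPKM), the lipid sensor gene Trem2 (10.4 against 0.364 FPKM), the platelet factor gene Pf4 (39.4 against 3.87 FPKM), the scavenger receptor gene Stab1 (16.9 against 1.45 FPKM), the lipid carrier gene Apoe (241 against 34.6 FPKM) and Lst1 (8.09 against 0.531 FPKM) stood beside it. Other myeloid genes differed less: Tyrobp, the signalling partner of TREM2, stood at 40.5 against 17.2 FPKM, and Cd68, a lysosomal protein, at 12.4 against 9.34 FPKM. The lipopolysaccharide receptor gene Cd14 was at 1.97 against 2.63 FPKM. Lgals3 and Cd52, also expressed by leukocytes, were lower in OCT4-GFP cells, at 2.36 against 27.7 and 3.15 against 19.1 FPKM.

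The macrophage excess stood beside low MHC class II transcripts. Of 7 class II genes, a group chosen after their values were seen, 5 were kept. All 5 stood below 0 and 4 were 4-fold lower in OCT4-GFP cells (median -2.57). H2-Ab1 and H2-Eb1 passed the filter through THY1 alone, which fixed their direction in advance. H2-DMb1, below the filter, stood higher at 0.855 against 0.383 FPKM. Cd74, the invariant chain, stood at 1.07 against 32.2 FPKM, H2-Aa at 1.09 against 23.3 FPKM and H2-Ab1 at 0.724 against 8.59 FPKM. Csf1, the ligand of CSF1R, was at 0.514 against 21.7 FPKM, a difference of -3.91. The wider list of antigen presentation and interferon response genes had 16 of 20 kept, 8 at 2-fold lower and 1 at 2-fold higher (median -1.31), with B2m, the class I light chain, at 57.2 against 202 FPKM. The summed FPKM of the macrophage list was 327 against 80.9, and 17.0, 17.4 and 33.1 in P7 ID4-GFP, VASA THY1 and KIT cells. At P0 it was 531 in OCT4-GFP and 650 in THY1 cells, so the sum was high in both P0 columns and, at P7, in OCT4-GFP cells alone. The part of macrophage RNA in the differences of other genes was not tested.

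**Figure D3:**
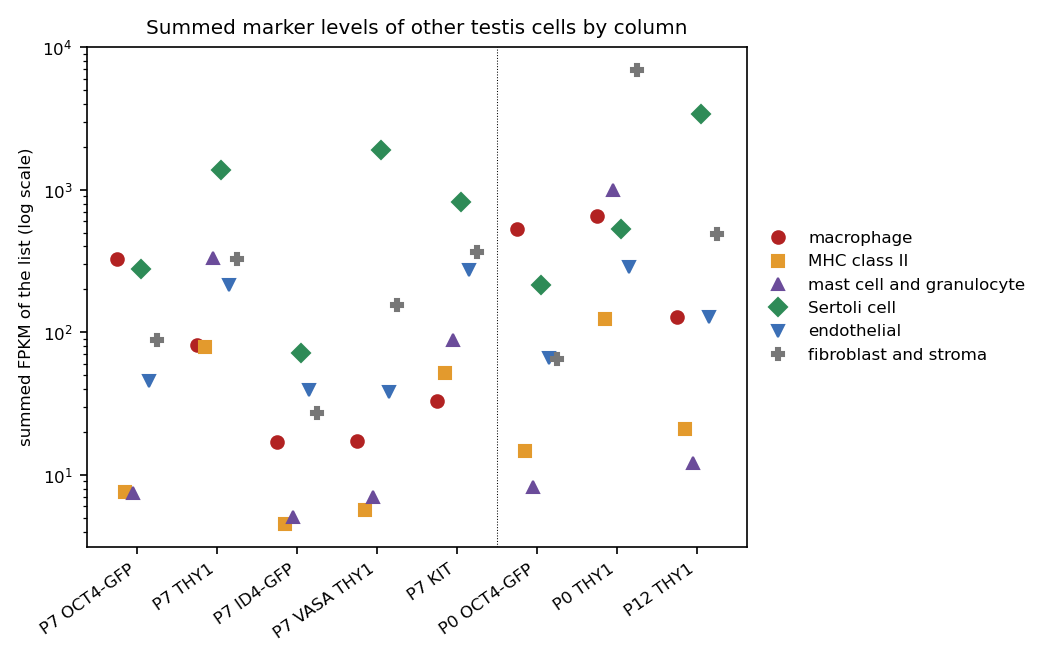
Summed FPKM (log scale) of 6 marker lists for cells other than germ cells in 8 columns, P7 columns to the left of the dotted line and P0 and P12 columns to its right. In P7 OCT4-GFP the macrophage sum is 327, against 80.9 in P7 THY1, while the mast cell and granulocyte sum is 7.51 against 332.

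For readers who work from regulatory sequence, the promoters of C1qc and Pf4 are shown because they were the only 2 of the 26 higher genes with a promoter in the table that hold GAGGAAGT, the letters of a PU.1 site; PU.1 is the ETS factor of myeloid cells. Searched on both strands in the 250 bases before the first listed start, these letters were in 7.69% of the 26 promoters, 2.11% of the 10592 promoters of kept genes and 2.44% of all 27025. The sequences are from RefSeq (GRCm38.p6), at chr4:136892915-136893164 (minus strand) and chr5:90772185-90772434 (plus strand), 5′ to 3′ along the gene and ending at the start of transcription, with the match in capitals (here on the opposite strand, ACTTCCTC).
C1qc: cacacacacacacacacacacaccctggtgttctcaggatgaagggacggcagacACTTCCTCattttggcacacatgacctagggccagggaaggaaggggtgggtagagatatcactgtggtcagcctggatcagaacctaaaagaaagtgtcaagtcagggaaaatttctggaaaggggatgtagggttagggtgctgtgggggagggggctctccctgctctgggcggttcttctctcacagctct
Pf4: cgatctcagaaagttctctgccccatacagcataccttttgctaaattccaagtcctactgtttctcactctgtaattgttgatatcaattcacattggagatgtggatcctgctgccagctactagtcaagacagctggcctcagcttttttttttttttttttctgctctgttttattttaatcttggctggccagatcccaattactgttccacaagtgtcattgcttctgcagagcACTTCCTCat
The match of C1qc lies far from the start and that of Pf4 next to it, and a match is a description of letters only. CCAAT was in 13 of the 26 promoters, and in 36.7% of those of kept genes.

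Sertoli cell transcripts were lower in OCT4-GFP cells. Of 23 markers 22 were in the table and kept, 14 were 2-fold and 11 were 4-fold lower, against 12.6% and 3.45% over all kept genes, and 1 was 2-fold higher (median -1.97). Kitl, the ligand of KIT, stood at 3.17 against 42.7 FPKM, Gdnf, the niche factor, at 0.581 against 9.18 FPKM and Sox9, the Sertoli fate factor, at 1.46 against 18.0 FPKM. Clu stood at 58.6 against 414 FPKM, Cst12 at 38.0 against 286 FPKM and Inha, a hormone subunit, at 19.5 against 117 FPKM. All 22 were detected in OCT4-GFP cells, and their summed FPKM was 278 against 1367, with 71.9 in P7 ID4-GFP and 1904 in P7 VASA THY1. In the same library Gfra1, Ret and Kit were higher while their ligand genes Gdnf and Kitl were lower. Trf, the iron carrier transferrin, was the exception at 43.8 against 17.1 FPKM. In the list of GDNF, FGF and KIT ligands and receptors 19 of 23 were kept, with 3 at 2-fold higher (Nrtn, Gfra3 and Csf1r) and 5 at 2-fold lower (median -0.26). The leukaemia inhibitory factor gene Lif, at 0.0524 against 6.31 FPKM, was among the lower ligands, but the ligand gene Nrtn, a relative of GDNF, stood at 9.82 against 3.15 FPKM.

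Retinoic acid genes were lower more often than higher. Of 22, 18 were kept, 1 was 2-fold higher and 5 were 2-fold lower (median -0.32). The synthesis genes Aldh1a1 (27.4 against 154 FPKM), Aldh1a2 (12.4 against 28.1 FPKM) and Rdh10 (5.30 against 30.1 FPKM) were lower in OCT4-GFP cells, as was the dehydrogenase gene Rdh11 (9.96 against 26.2 FPKM). The higher one was Rbp4, a retinol carrier, at 14.9 against 5.67 FPKM. The receptor genes Rara (19.8 against 14.8 FPKM) and Rarg (19.6 against 11.1 FPKM) and the carrier gene Crabp1 (150 against 89.3 FPKM) differed by less than 2-fold. Aldh1a1 and Rdh10 are known from Sertoli cells, whose markers were lower beside them, as were Leydig cell markers. In P7 KIT and P14 KIT cells Aldh1a1 stood at 270 and 479 FPKM and Rdh10 at 18.8 and 12.3 FPKM. The summed FPKM of the Sertoli list was 820 and 136 there, against 1367 in P7 THY1. The Leydig list had 1364 and 810, against 269 in P7 THY1. The part of Sertoli or Leydig RNA in these values was not tested.

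Mast cell and granulocyte markers had the lowest median of the 31 lists, and red cell, lymphocyte and endothelial markers were also lower in OCT4-GFP cells. Of 13 mast cell and granulocyte markers 9 were kept, all 9 were 2-fold and 8 were 4-fold lower in OCT4-GFP cells (median -4.75). The mast cell protease genes Cma1 and Tpsb2 were listed at 0 in OCT4-GFP cells but reached 33.5 and 26.0 FPKM with THY1, and Mcpt4 stood at 0.144 against 34.9 FPKM. The neutrophil calcium-binding genes S100a8 and S100a9 stood at 1.30 against 93.1 and 1.19 against 96.6 FPKM. The red cell genes Hbb-b2, a beta globin, and Alas2, of haem synthesis, stood at 3.25 against 886 FPKM and 0.743 against 83.7 FPKM; globin copies may share reads. P7 THY1 held the highest Hbb-b2 of the 8 columns compared in the plot of marker sums, next to 31.2 FPKM in P0 THY1. Of 12 red cell markers 9 were in the table and 5 kept, all 2-fold lower (median -2.09). Of 18 lymphocyte markers 17 were in the table, 9 were kept and 4 were 2-fold lower (median -0.92). The median kept member of the mast cell and granulocyte, red cell and lymphocyte lists stood at 0.144, 0.743 and 0.606 FPKM in OCT4-GFP cells. Most of these members thus passed the filter of 1 FPKM through THY1 alone, which fixed their direction in advance. The leukocyte antigen gene Ptprc, which encodes CD45, stood at 0.797 against 7.77 FPKM, lower in the preparation with the higher macrophage markers. The granzyme gene Gzmc was listed at 0 against 27.6 FPKM. Endothelial markers, 15 of 15 kept, had 13 at 2-fold and 8 at 4-fold lower (median -2.26), with the surface genes Emcn and Esam at 0.217 against 31.4 and 0.171 against 18.0 FPKM, and Pecam1 at 2.23 against 33.6 FPKM. Plvap, at 8.45 against 3.72 FPKM, was the endothelial gene that was higher. Against P7 VASA THY1 the medians of these 4 lists lay between 0.00 and 0.18, and with a pseudocount of 5 the endothelial median was -0.89.

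Leydig, peritubular and stromal markers were lower by less than mast cell, red cell and endothelial markers on the log2(FPKM + 1) scale. With a pseudocount of 5 the stromal median (-0.92) was no longer above the endothelial one (-0.89). Of 13 Leydig genes 11 were kept, none stood above 0 and 5 were 2-fold lower (median -0.92). Star, which brings cholesterol into mitochondria, stood at 3.27 against 33.6 FPKM and the side chain cleavage gene Cyp11a1 at 4.94 against 36.8 FPKM, while Cyp17a1, the androgen enzyme, was near equal at 6.54 against 8.46 FPKM. Of 11 peritubular myoid genes 9 were kept and 7 were 2-fold lower (median -1.34), with the smooth muscle genes Acta2 and Tagln at 12.7 against 87.9 and 2.73 against 30.6 FPKM. Of 12 fibroblast and stroma genes, all kept, 11 were 2-fold lower and 1 of them 4-fold (median -1.31), led by the matrix proteoglycan gene Dcn at 9.28 against 73.6 FPKM. Neural markers (12 in the table, 9 kept, median -0.56) and duct epithelium markers (10 in the table, 8 kept, median -0.14) had 2 members each at 2-fold lower.

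**Figure D4:**
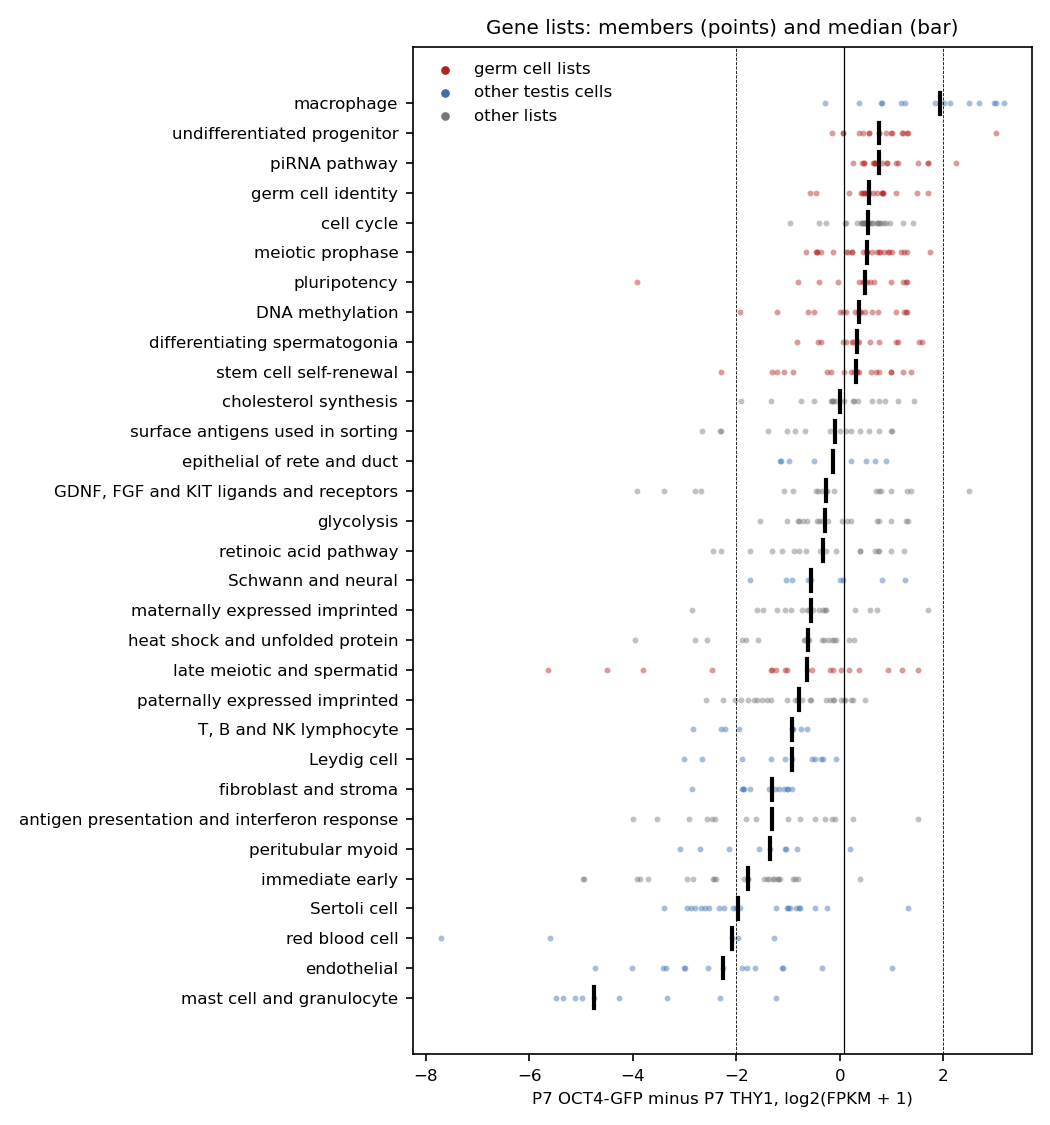
Differences of P7 OCT4-GFP minus P7 THY1 on the log2(FPKM + 1) scale for the 31 gene lists; each point is a kept gene and each bar the list's median, with a solid line at 0.08, the median of all kept genes, and dashed lines at 4-fold. The macrophage median (1.93) is the highest and the mast cell and granulocyte median (-4.75) the lowest, and 8 of the 9 germ cell lists have medians above the line.

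Immediate early genes, which are switched on within minutes of a signal or of handling, were lower in OCT4-GFP cells. Of 25, all kept, 21 were 2-fold and 10 were 4-fold lower, and only Jund (107 against 80.9 FPKM) stood above 0 (median -1.77). The growth factor response genes Ier3 and Klf6 stood at 11.3 against 177 and 11.6 against 96.5 FPKM, the AP-1 subunit genes Junb and Fosl1 at 17.3 against 129 and 0.778 against 22.1 FPKM, and Fos at 52.5 against 96.1 FPKM. Heat shock and unfolded protein genes had 6 of 18 at 2-fold lower and none higher (median -0.61), with Hspb1 at 1.46 against 37.3 FPKM and the stress factor gene Atf4 at 87.8 against 330 FPKM. Hspa1a and Hspa1b (3.86 against 27.9 and 4.08 against 34.3 FPKM) are near-identical copies, so their split is uncertain. The sorting methods differed between the preparations, and their part in these values was not tested.

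Several genes among the 20 largest lower differences belong to cell contact, matrix or the actin cytoskeleton, a grouping made after their values were seen. Cyr61 and Ctgf also stand in the immediate early list. Thbs1, a matrix glycoprotein, stood at 1.58 against 112 FPKM, Cyr61 and Ctgf, secreted matrix proteins that respond to cell stretch, at 8.71 against 303 and 3.72 against 144 FPKM, and Edn1, the vessel peptide endothelin, at 1.41 against 82.5 FPKM. The membrane gene Emp1 (0.988 against 69.9 FPKM), Cav1 of caveolae (1.31 against 68.2 FPKM) and Phldb2 (1.57 against 74.1 FPKM) were also among them. Tinagl1, a basement membrane protein, had the second largest difference, at 0.258 against 118 FPKM. In P7 KIT and P12 THY1 cells, also selected with beads, Thbs1 stood at 42.8 and 80.4 FPKM, Cyr61 at 120 and 135 FPKM and Cav1 at 69.5 and 52.9 FPKM. In P7 ID4-GFP and P0 OCT4-GFP cells, also sorted by GFP, they stood at 1.34 and 1.16, 1.64 and 3.86, and 0.0871 and 0.640 FPKM. Not all bead-selected columns were high: Thbs1 stood at 0.638 FPKM and Cyr61 at 8.36 FPKM in P14 THY1 cells, where Cav1 was at 35.4 FPKM. The VASA THY1 library lay between for Cyr61 (29.3 FPKM) and near the GFP columns for Thbs1 (1.67 FPKM). The part of the selection method in these values was not tested.

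The promoters of Tinagl1, Cyr61 and Edn1 are shown because these 3 of the genes with the largest lower differences share GGAATG, the core letters of sites of TEAD factors, partners of the stretch-responsive regulator YAP. They were picked for the match, and no promoter was available for others of those genes, such as Ctgf and Thbs1. GGAATG, searched on both strands in the same 250 bases, was in 53 of the 315 available promoters of lower genes (16.8%). It was in 10.4% of those of kept genes and in 12.6% of all 27025. These 3 sets differed in base composition, with median GC of 57.2%, 60% and 52%. The sequences are from RefSeq (GRCm38.p6), at chr4:130175123-130175372 (minus strand), chr3:145649986-145650235 (minus strand, listed there as Ccn1) and chr13:42301226-42301475 (plus strand), 5′ to 3′ along the gene, with the match in capitals (here on the opposite strand, CATTCC).
Tinagl1: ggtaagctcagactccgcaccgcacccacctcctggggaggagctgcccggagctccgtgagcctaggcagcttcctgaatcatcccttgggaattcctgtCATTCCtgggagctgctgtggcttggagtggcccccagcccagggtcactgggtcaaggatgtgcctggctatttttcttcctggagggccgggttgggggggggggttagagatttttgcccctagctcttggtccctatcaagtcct
Cyr61: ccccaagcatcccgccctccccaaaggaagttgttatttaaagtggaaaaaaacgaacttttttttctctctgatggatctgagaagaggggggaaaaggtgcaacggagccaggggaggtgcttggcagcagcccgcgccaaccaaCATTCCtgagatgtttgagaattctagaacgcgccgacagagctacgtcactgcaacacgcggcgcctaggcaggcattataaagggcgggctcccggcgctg
Edn1: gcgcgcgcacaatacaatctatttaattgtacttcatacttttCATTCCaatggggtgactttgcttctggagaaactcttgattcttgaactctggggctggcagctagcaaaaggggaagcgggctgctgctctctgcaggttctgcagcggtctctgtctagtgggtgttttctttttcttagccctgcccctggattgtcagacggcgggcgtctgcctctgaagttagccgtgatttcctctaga
Each sequence holds 1 match, and that of Edn1 shares bases with CCAAT. The AP-1 letters TGANTCA were in 8.57% of the promoters of lower genes against 4.12% of those of kept genes, the CArG box of SRF in 2.54% against 1.21%, and TATAAA in 15.9% against 6.55%. Over all 27025 promoters these shares were 6.87%, 1.4% and 13%.

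Protamine and transition protein genes were higher in P7 THY1 than in any other column. The protamine genes Prm1 and Prm2, which pack sperm DNA, stood at 1.06 against 101 and 1.20 against 29.7 FPKM, and the transition protein genes Tnp2 and Tnp1 at 0.708 against 37.7 and 9.16 against 55.0 FPKM. Prm1, Prm2 and Tnp2 were listed at 0 in P7 ID4-GFP, VASA THY1 and KIT cells. Of 24 late meiotic and spermatid genes 19 were kept, 9 were 2-fold lower and 2 were 2-fold higher (median -0.64), and these 4 were the members at 4-fold. The list's summed FPKM was 108 against 330, and 4168 in P14 THY1 cells, so the list as a whole was not highest in P7 THY1. Mtrnr2l, a humanin-like gene that may share reads with mitochondrial RNA, stood at 6.60 against 387 FPKM.

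Imprinted genes were lower more often than higher. The 2-fold counts of metabolic genes lay near the shares over all kept genes, 7.83% higher and 12.6% lower. Of 29 paternally expressed imprinted genes 26 were kept, 11 were 2-fold lower and none higher (median -0.79), with the zinc finger gene Peg3 at 8.15 against 33.2 FPKM. Of 24 maternally expressed genes 23 were in the table and 18 kept, 5 were 2-fold lower and 1 higher (median -0.56). The higher one, Ascl2, a helix-loop-helix factor, stood at 12.9 against 3.27 FPKM. Glycolysis genes (18 of 20 kept, median -0.28) had 2 at 2-fold in each direction: Ldha (12.4 against 38.3 FPKM) and Tpi1 were lower, and Eno1 (45.1 against 17.4 FPKM) and Hk1 higher. Cholesterol synthesis genes (18 of 20 kept, median 0.00) likewise had 2 each way, with Cyp51 at 21.5 against 83.4 FPKM and Mvk at 27.8 against 9.71 FPKM.

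The same contrast at P0, P0 OCT4-GFP minus P0 THY1, shares no library with the one at P7. By the 4-fold rule 6.33% of all genes differed there, and among genes with at least 1 FPKM 1.05% were 4-fold higher and 8.46% lower. Of the 423 genes lower at P7, 284 were also lower by the 4-fold rule at P0, 67.1% of the 423 and 24.3% of the 1171 genes lower at P0, where 5.61% of all genes were lower. In all, 418 of the 423 had a negative difference at P0. The 5 that did not were Epha2, Filip1l, Lrp8, Oaz3 and Tnp1. Of the 34 genes higher at P7, 20 had a positive difference at P0. By the 4-fold rule 4 were higher there, 11.8% of the 34 and 2.65% of 151, where 0.723% of all genes were higher. These 4 were Tuba3a, AA465934, BC048355 and Hist1h4i. No gene was called in opposite directions at the 2 ages.

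Germ cell identity genes had a median of 1.55 at P0 against 0.57 at P7, progenitor genes 1.28 against 0.77 and self-renewal genes 1.34 against 0.31. Mast cell and granulocyte genes (-5.04 against -4.75), endothelial genes (-2.44 against -2.26) and Sertoli genes (-1.66 against -1.97) had similar medians at both ages. The mast cell and granulocyte genes kept at P7 had a median of 0.0339 FPKM in P0 OCT4-GFP and 79.6 FPKM in P0 THY1 cells. Most of them thus passed the filter through THY1 alone at P0 too, so their shared direction was fixed in advance. Fibroblast and stroma genes had -5.80 at P0 and -1.31 at P7, with a summed FPKM of 6947 in P0 THY1 and 326 in P7 THY1. Macrophage genes had -0.22 at P0 and 1.93 at P7. Whether any contrast differs between the ages could not be tested with 1 value per column.

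**Figure D5:**
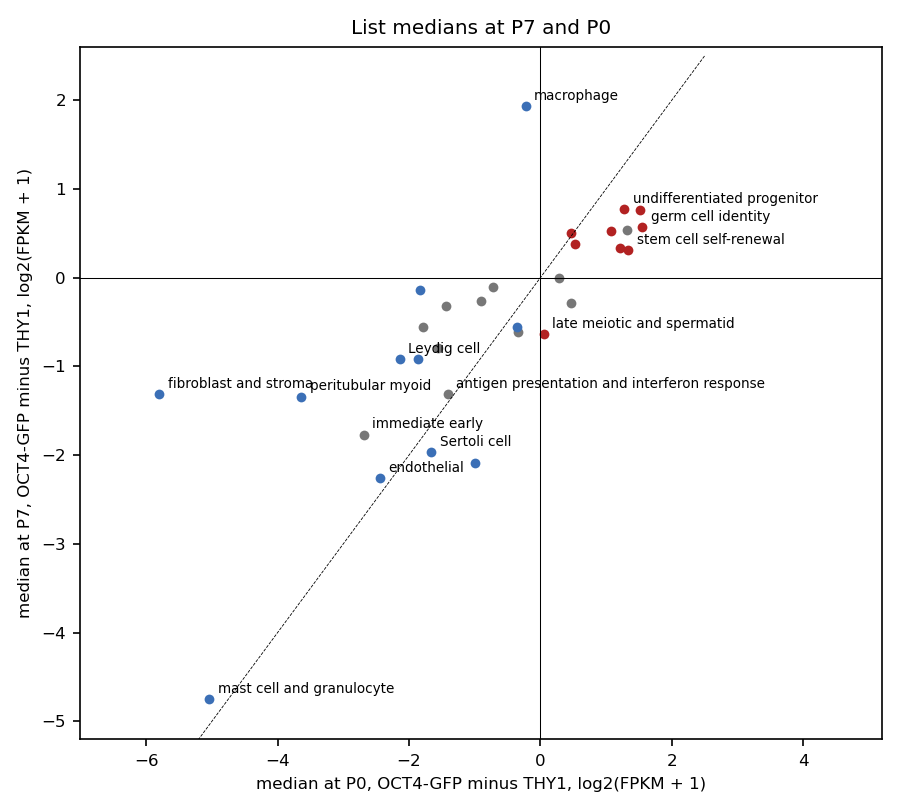
Median difference of OCT4-GFP minus THY1 cells for the 31 gene lists at P0 (horizontal axis) and P7 (vertical axis), on the log2(FPKM + 1) scale; red are germ cell lists, blue other testis cells, grey other lists, and the dashed line marks equal medians. The macrophage list (-0.22 at P0, 1.93 at P7) lies far above the line, and so do the fibroblast and stroma (-5.80, -1.31) and peritubular myoid (-3.64, -1.34) lists.

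The values depended on which library stood for each preparation. P7 VASA THY1 was set in place of P7 THY1; the protocol names VASA-GFP cells only at P0, so how this library was sorted is not clear. There were then 52 genes higher and 114 lower. Macrophage genes (median 3.42), progenitor genes (0.79) and Sertoli genes (-2.29) kept their direction, the immediate early median was -0.20 and the endothelial median 0.18. With P7 ID4-GFP in place of P7 OCT4-GFP, 17 genes were higher and 649 lower, and the macrophage median was -1.30. Each of these comparisons shares 1 column with the first.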

How the data were processed

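RNA libraries of testis cells were compared from 1 table. The libraries kept strand and were made after removal of rRNA, per the labels' protocols. The submitters' processing notes list mm9 as the genome and the programs Cufflinks 2.1.1, TopHat2 2.0.9 and CASAVA. The annotation is not given in the sources used here. The authors deposited FPKM for 20889 gene symbols in 11 columns, which stand for 16 RNA libraries. P7 THY1 is 1 value for 2 libraries, with no account of how it was formed. The 75th percentile was 17.5 FPKM in P7 OCT4-GFP and 17.3 FPKM in P7 THY1, and the short RNA gene Rmrp held 37.3% and 41.0% of their sums.

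Read depth is not in these values. In 208 genes under 0.05 FPKM in both columns the ratio of OCT4-GFP to THY1 lay most often at 0.64 (30 genes), 0.32 (23), 0.96 (21) and 1.28 (14), steps that come from whole fragments. A fragment then weighs more in P7 THY1, whose low values are less precise, as far as these steps hold. Intervals for single values need counts and are not given.

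Python 3.11.15 with pandas 2.3.3, numpy 2.4.6 and, for plots, matplotlib 3.10.9 was used to compute differences of log2(FPKM + 1) and counts at 4-fold (at least 5 FPKM in the higher preparation) or, in 31 lists, at 2-fold (FPKM of 1 or more in either column). The calculation was tested on simulated data. Named are the sort markers, the 20 largest differences in each direction and up to 6 members of each list by size or, where members differed little, by abundance. Comparisons, members and lists were chosen with earlier results of these data known. Genes named to show exceptions or groups within a list, the class II and histone groups, the other gene families and the motifs were chosen after their values were seen. Of the symbols 18380 are current in RefSeq (GRCm38.p6), used for names and promoters. Alternatives were the pseudocount, the filter, the scaling, the fold and other libraries in place of each column. The bisulfite and chromatin samples were not analysed here.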

Additional observations from a re-analysis of the deposited data

How the results depend on the processing

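No paired analysis was possible because the P7 THY1 libraries share 1 column and the OCT4-GFP library has no replicate, and for the same reason no library could be left out. Scaling the columns to the same median and quantile normalization kept all 31 list medians and all 45 named genes within 1.5-fold of their values, with the counts of genes within 1.5 times. Against 457 genes (34 higher, 423 lower), a pseudocount of 0.1 gave 60 higher, and a pseudocount of 5 gave 160 genes, 8 higher and 152 lower. The pseudocounts of 0.1 and 5 moved 5 and 6 of the 31 list medians and 23 and 34 of the 45 genes by over 1.5-fold, none across 0: endothelial came to -3.35 and -0.89, red blood cell to -4.77 and -1.23, mast cell and granulocyte to -6.22 and -2.63, and with 5 macrophage to 1.24. An FPKM of 20 in the higher column gave 221 (18 and 203), an 8-fold rule 154 (7 and 147) and a 2-fold rule 2067 (888 and 1179). With P7 VASA THY1 in place of P7 THY1 there were 166 (52 and 114), and with P7 ID4-GFP in place of P7 OCT4-GFP 17 higher and 649 lower. With P7 VASA THY1 these list medians changed sign or came to 0: meiotic prophase (-0.35), late meiotic and spermatid (0.41), antigen presentation (0.44), Leydig (0.15), peritubular myoid (0.01), endothelial (0.18), red blood cell (0.02), lymphocyte (0.06), mast cell and granulocyte (0.00), neural (0.25), GDNF, FGF and KIT (0.53), duct epithelium (0.49), glycolysis (0.17), surface antigens (0.39), differentiating (-0.25) and DNA methylation (-0.04). Cholesterol synthesis, at 0.00, came to 0.32. The genes Kit (-0.08), Id4 (0.55), AA465934 (-0.57), Hbb-b2 (0.85), Mtrnr2l (1.75), Prm1 (1.04), Alas2 (0.10), S100a8 (0.68), Mcpt4 (0.10) and Ctla2a (0.02) changed sign, and Thy1, equal before, came to 0.32. With P7 ID4-GFP the macrophage median was -1.30, and Cx3cr1 (-0.04), C1qc (-1.10), Fcrls (-0.47), Pf4 (-1.49), C1qa (-1.22), Stab1 (-0.79), Apoe (-1.47), C1qb (-1.33) and Csf1r (-1.15) changed sign. The self-renewal median was -0.05. The cause was not tested. Depth limits what low values show, and no interval could be given.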

Other observations

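Clustered histone genes, whose transcripts lack a poly(A) tail and are made with replicating DNA, were higher in OCT4-GFP cells. Of 59, 56 were kept, 51 stood above 0, 32 were 2-fold higher and 2 were 2-fold lower (median 1.07), where 7.83% of all kept genes were 2-fold higher. By type the medians were 1.52 for H3 (10 kept), 1.37 for H4 (11 kept), 0.99 for H2A (13 kept), 0.93 for H2B (16 kept) and 0.90 for H1 (6 kept). Hist1h4f stood at 331 against 59.0 FPKM, Hist1h3b at 171 against 31.1 FPKM and Hist2h2bb at 2392 against 713 FPKM. The testis variants Hist1h2aa and Hist1h2ba were near equal, at 572 against 615 and 555 against 613 FPKM. A further testis variant, Hist1h1t, was higher in OCT4-GFP cells, at 58.1 against 12.8 FPKM. Hist1h2bc was the counterexample at 1.87 against 49.7 FPKM. The summed FPKM of the cluster genes was 19835 in P7 OCT4-GFP, 9677 in P7 THY1, 18100 in P7 ID4-GFP, 12114 in P7 VASA THY1 and 16479 in P7 KIT, and 9999 and 9817 in P0 OCT4-GFP and P0 THY1. By this sum P7 THY1 was the lowest of the P7 columns. The median level of the kept genes was lower in P7 VASA THY1, at 46.1 against 64.9 FPKM in P7 THY1. At P0 the median difference was -0.44, with 5 genes 2-fold higher and 17 2-fold lower. Copies of these genes share sequence, so single values are uncertain, and cell cycle genes had a median of 0.54 beside them. H2afx, which encodes the DNA damage histone H2AX, stood at 726 against 195 FPKM.

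Ribosomal protein genes did not move with them: of 85, 78 were kept, with a median of 0.05, 5 at 2-fold higher and 2 at 2-fold lower. Calcium-binding and matrix families were lower in OCT4-GFP cells. Of 13 S100 genes 9 were kept and 8 were 2-fold lower (median -3.11), with S100a10, the partner of annexin A2, at 22.8 against 411 FPKM. S100a4, S100a11 and S100a16 passed the filter through THY1 alone, which fixed their direction in advance. Of 12 annexin genes 8 were kept and 5 were 2-fold lower (median -2.52), with Anxa5 at 9.92 against 182 and Anxa2 at 32.8 against 312 FPKM, while Anxa11 stood at 23.3 against 9.64 FPKM. Of 41 collagen genes 31 were kept, 16 were 2-fold lower and 1 was 2-fold higher (median -1.07). The basement membrane chains Col4a1 and Col4a2 (16.5 against 210 and 9.53 against 83.7 FPKM) differed more than the fibrillar chain Col1a2 (18.5 against 69.3 FPKM). Of 20 MAGE genes, a family largely on the X chromosome that includes testis antigens, 11 were kept (median 0.82). Of these 5 were 2-fold higher and 4 stood below 0. Magea10 was at 15.5 against 2.66 FPKM, but Maged1 at 248 against 401 and Maged2 at 27.6 against 52.2 FPKM. The summed FPKM of the family was lower in OCT4-GFP cells, at 369 against 498.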
